A study of Homo sapiens with 6 samples.

Results

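The MYC family and the MAX network were taken as the 10 genes MYC, MYCN, MYCL, MAX, MXD1, MXD3, MXD4, MXI1, MNT and MGA, chosen by gene symbol, of 58024 genes in the RNA-Seq table. All 10 were found, and 9 had a mean of at least 0.1 FPKM (mapped fragments normalised to transcript length and library size) and were tested. C4-2B is a castration resistant prostate cancer cell line derived from LNCaP cells. Parental cells (3 libraries) were passaged in the vehicle dimethyl sulfoxide, given as 1% in the design text and as at most 0.1% in the methods. They were set against a subline resistant to enzalutamide (3 libraries). The latter was selected in 1 to 20 µM enzalutamide, an antagonist of the androgen receptor, over at least 6 months, pooled from the surviving fraction and kept in 5 µM. RNA was taken from cells exposed to 10 µM enzalutamide, and whether this included the parental cells is not clear from the wording. The resistant line is therefore a single selected population grown with drug, so that selection and the presence of the drug cannot be told apart. Nothing states that the 3 libraries of a group came from separate cultures, and p values measure only the spread between these libraries. In bulk RNA, fewer cells that express a gene and less RNA per cell cannot be told apart.

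MYC, MYCN and MYCL are transcription factors that bind DNA only when paired with MAX, preferably at the E-box CACGTG, and recruit histone acetyltransferases to growth genes. The MXD proteins, MXI1 and MNT also pair with MAX, bind the same motif and recruit SIN3 and histone deacetylases, while MGA joins MAX to a Polycomb complex. A parallel arm uses MLX, which pairs with the nutrient sensors MLXIP (MondoA) and MLXIPL (ChREBP) and with some of the MAX-binding repressors. In prostate cancer the MYC locus is often gained, and MYCN is linked with neuroendocrine tumors.

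The total of a library ranged from 799614 to 870110 FPKM in parental and from 792975 to 852909 FPKM in resistant cells. The table holds no counts. Depth was estimated from the step between low values, which reflects 1 read, at 13300000 to 20700000 reads in parental and 14600000 to 17200000 in resistant libraries, so that 1 read on a transcript of 2000 bases was worth 0.0269 to 0.0416 FPKM. All 10 prostate luminal markers, such as HOXB13, averaged at least 1 FPKM over the libraries, and no immune or endothelial marker did. Of other cell types, 1 of 5 basal and 3 of 6 fibroblast markers averaged at least 1 FPKM, and the fibroblast markers summed to 8.04 to 10.9 FPKM in parental and to 8.34 to 15.0 FPKM in resistant libraries. DCN, a fibroblast matrix gene, was listed at 0 in all parental libraries and averaged 3.92 FPKM in the resistant libraries, LUM rose from 0.0604 to 0.969 FPKM, and PDGFRB fell from 2.10 to 0.164 FPKM on average. The luminal markers summed to 4360 to 5122 FPKM in parental and to 1311 to 1415 FPKM in resistant libraries. The 10 neuroendocrine markers summed to 79.3 to 86.8 FPKM in parental and to 519 to 584 FPKM in resistant libraries, and 7 of the 8 tested rose, although the defining marker INSM1 stayed at or below 0.0369 FPKM in the resistant libraries. The part of these differences in the results below was not tested.

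E-boxes are shown first, since the motif is shared by the activators and the repressors of the network. Promoters were the RefSeq windows on GRCh38.p14 from 250 bases before to 50 bases after a gene's start. The motif CACGTG, which reads the same on both strands, was present in 2548 of 35116 windows, or 7.3%. Windows were given for 9 of the 10 members, 14 in all, and 2 of these held the motif, those of MNT and MXD4. The member without a window was MYC itself, so that its promoter was not examined. In the parallel arm, MLX and ARRDC4 held it as well. The sequences below are shown because they belong to the 2 members with the motif, to MLX, and to 3 genes widely described as activated by MYC that are described further on, SRM and LDHA, which fell, and CDK4, which rose. Capitals mark the E-box, all sequences run 5′ to 3′ on the strand of the gene, and all lie before the RefSeq start.
MNT, chr17:2401231-2401270, minus strand: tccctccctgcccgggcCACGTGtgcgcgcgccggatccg
MXD4, chr4:2262325-2262359, minus strand: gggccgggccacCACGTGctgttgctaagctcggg
MLX, chr17:42567033-42567072, plus strand: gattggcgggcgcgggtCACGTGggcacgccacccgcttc
SRM, chr1:11060195-11060234, minus strand: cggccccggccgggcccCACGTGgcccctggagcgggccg
LDHA, chr11:18394361-18394400, plus strand: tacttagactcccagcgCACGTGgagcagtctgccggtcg
CDK4, chr12:57752504-57752543, minus strand: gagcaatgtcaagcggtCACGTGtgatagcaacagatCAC
The first base of the motif lay 193 bases before the RefSeq start in MNT, 238 in MXD4, 50 in MLX, 185 in LDHA and 216 in CDK4. The CDK4 window held 3 copies, of which the first is shown with the opening letters of the next, and the LDHA window held 2, of which the first is shown. A match is a description of the letters and not evidence that a factor bound there.

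Of the MYC proteins, MYC was by far the most abundant transcript in both groups and its level did not pass the test, while MYCL fell. MYC lies on chromosome 8 between 127735434 and 127742951 of GRCh38, and measured 207, 179 and 196 FPKM in the parental and 160, 187 and 186 FPKM in the resistant libraries. The groups overlapped, with resistant replicate 0 the lowest of all and parental replicate 0 the highest. The log2 fold change of FPKM + 0.1, the scale of all fold changes here, was −0.13 (SE 0.09, adjusted p = 0.305 by limma and Benjamini-Hochberg), with a 95% interval from −0.35 to 0.09. Among the 19648 protein-coding genes of the table, MYC ranked from 456 to 518 in the parental and from 471 to 538 in the resistant libraries. MYC made up 97.6% ± 0.0661 of the summed FPKM of the 3 MYC genes in the parental and 98.8% ± 0.0530 (SD, n = 3 per group) in the resistant libraries.

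MYCL, the family member first found in small cell lung cancer, was the MYC gene that changed. It lies on chromosome 1 (39895428 to 39902256) and had 5.04, 4.42 and 5.05 FPKM in parental replicates 0 to 2 against 1.79, 2.08 and 2.12 FPKM in the resistant libraries. All resistant values lay below all parental values, and the mean was 2.42-fold lower. The log2 fold change was −1.23 (SE 0.17, adjusted p = 0.00175 by limma and Benjamini-Hochberg), and it stayed between −1.30 and −1.16 when single libraries were left out.

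MYCN on chromosome 2 (15940550 to 15947007) was listed at 0 in all 3 parental replicates, against 0.186, 0.0303 and 0.133 FPKM in the resistant libraries. With a transcript of 2613 bases, these values correspond to about 8, 1 and 5 reads at the estimated depths. Its mean was below 0.1 FPKM, so that it was not tested, and no fold change is given. The antisense gene MYCNOS was listed at 0 in every library. MYCN was thus near the limit of detection in the resistant cells.

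MAX, the obligate partner of the MYC proteins, did not pass the test. On chromosome 14 (65006174 to 65102695), it had 42.9, 42.6 and 54.4 FPKM in the parental and 36.0, 49.0 and 31.0 FPKM in the resistant libraries. The groups overlapped, and the log2 fold change was −0.29 (95% interval −0.74 to 0.17, limma with Benjamini-Hochberg correction, adjusted p = 0.270). MAX overlaps FNTB and CHURC1-FNTB on the opposite strand, and although the library kit was stranded, counting by strand is not stated, so that reads of these genes may not have been told apart. Summed MYC proteins exceeded MAX in each library, by 4.93, 4.31 and 3.70 times in parental and by 4.503, 3.85 and 6.07 times in resistant cells.

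**Figure D1:**
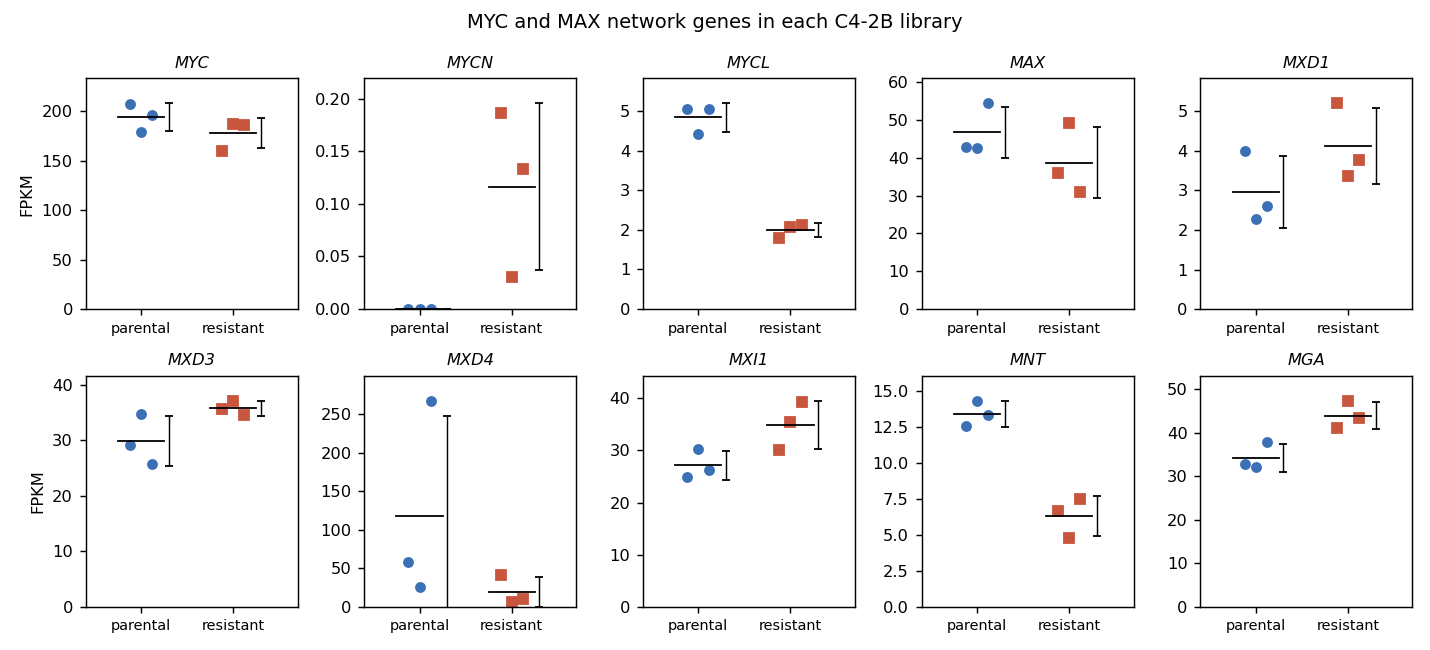
FPKM of each member (y axes, linear from 0, a different scale for each gene) in the 3 parental (circles) and 3 resistant (squares) libraries, with group means (horizontal lines) and SD (bars at the side, clipped at 0). MYCL and MNT show resistant values below every parental value, MGA shows resistant values above, and MXD4 spreads from 26.1 to 267 FPKM within the parental group alone.

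Among the 6 MAX-binding repressors, MNT fell, MGA rose, and MXD1, MXD3, MXD4 and MXI1 did not pass the test. With MYCL, 3 of the 9 members tested were past the threshold, 1 upregulated and 2 downregulated, and 2 and 2 after each of 3 other scalings of the libraries. Over all genes tested, 44.4% were past it, 22.1% upregulated and 22.3% downregulated, so that the members were not called more often than genes at large. Values of the groups did not overlap in 3 of the 9 members, against 54.8% of all genes. The median log2 fold change was −0.13 over the members and −0.05 over all genes tested.

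MNT, the repressor that is expressed in both resting and dividing cells and competes with MYC for MAX, had 12.6, 14.3 and 13.3 FPKM in parental replicates 0 to 2 and 6.63, 4.80 and 7.47 FPKM in the resistant libraries. It lies on chromosome 17 (2384073 to 2401104) and is one of the members with the E-box printed above. Every resistant value was below every parental value, with a mean 2.12-fold lower. The log2 fold change was −1.10 (SE 0.18, adjusted p = 0.00368 by limma and Benjamini-Hochberg), from −1.23 to −0.92 with each library left out.

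MGA, a large protein with a T-box and a MAX-binding domain, had 32.8, 32.1 and 37.997 FPKM in parental and 41.1, 47.3 and 43.3 FPKM in resistant libraries (chromosome 15, 41621134 to 41773081). The resistant values were all above the parental values, and the mean was 1.28-fold higher. The MGA log2 fold change was 0.36 (SE 0.10, adjusted p = 0.0273 by limma and Benjamini-Hochberg). This call was lost when parental replicate 0, parental replicate 1, resistant replicate 1 or resistant replicate 2 was left out, with log2 fold changes of 0.33, 0.31, 0.30 and 0.37, and adjusted p values from 0.0686 to 0.0850 by limma and Benjamini-Hochberg. The microRNA gene MIR626 lies within MGA on the same strand and was listed at 70.7 FPKM in parental replicate 1 and at 27.3 FPKM in resistant replicate 0, and at 0 in the others.

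MXI1, also known as MXD2, came next in order of adjusted p. It had 24.96, 30.3 and 26.3 FPKM in the parental and 30.2, 35.4 and 39.3 FPKM in the resistant libraries (chromosome 10, 110207605 to 110287365). The groups overlapped in that resistant replicate 0 lay just below parental replicate 1. Its log2 fold change of 0.36 (95% interval 0.05 to 0.67) had an adjusted p of 0.0651 in limma with Benjamini-Hochberg correction. It was past the threshold after each of 3 other scalings of the libraries, with log2 fold changes of 0.46, 0.43 and 0.40. It was also past it without parental replicate 1 (MXI1 log2 fold change 0.44) and without resistant replicate 0 (0.46).

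MXD3, expressed in dividing cells, and MXD1, induced in differentiating cells, had higher means in the resistant cells without passing the test. MXD3 on chromosome 5 (177301461 to 177312757) had 29.2, 34.7 and 25.7 FPKM in parental and 35.6, 37.1 and 34.5 FPKM in resistant libraries. Only parental replicate 1 lay among the resistant values, and without it the log2 fold change of 0.27 became 0.38 and passed the threshold. MXD3 overlaps RAB24 on the same strand and PRELID1 on the opposite strand, so that the split of reads among them is uncertain. MXD1 on chromosome 2 (69897688 to 69942945), the least abundant repressor, had 4.002, 2.28 and 2.60 FPKM in parental and 5.21, 3.37 and 3.77 FPKM in resistant libraries. The same limit holds for MXD1, which overlaps the more abundant SNRNP27 on the same strand. SNRNP27 had 23.9, 17.3 and 21.4 FPKM in parental and 26.3, 26.6 and 27.0 FPKM in resistant libraries. The intervals of the log2 difference were −0.03 to 0.56 for MXD3 and −0.20 to 1.16 for MXD1.

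MXD4, a repressor of the same family and the second member with an E-box window, was the most variable of the members. On chromosome 4 (2247432 to 2262109), it was at 58.2, 26.1 and 267 FPKM in the parental and at 41.4, 6.09 and 9.84 FPKM in the resistant libraries. Parental replicate 2 lay far above the other parental libraries, and resistant replicate 0 was above parental replicate 1. The log2 fold change of −2.44 had an SE of 1.02 (adjusted p = 0.0990 by limma and Benjamini-Hochberg) and a 95% interval from −4.90 to 0.02. It was −1.52 without parental replicate 2 and −3.24 without resistant replicate 0. No other gene of the table shared its assembly locus. MXD4 thus did not pass the test, with wide spread within both groups and overlap between them.

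**Figure D2:**
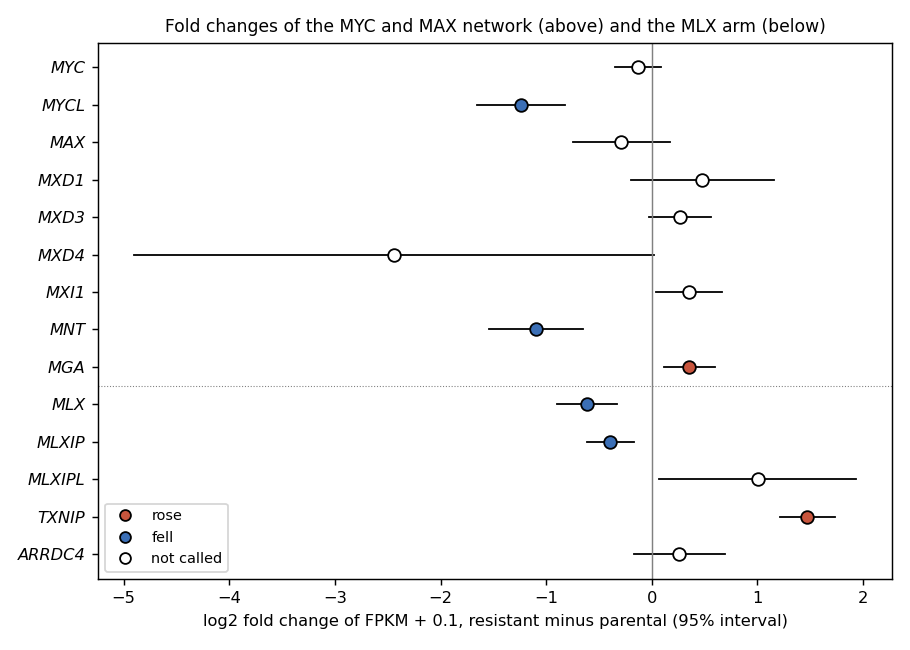
Log2 fold change of FPKM + 0.1 between resistant and parental cells (x axis) with its 95% interval from limma, for the 9 members tested (above the dotted line) and the 5 genes of the MLX arm (below). Filled points passed an adjusted p of 0.05; MYC sits at −0.13 with an interval across 0, and the MXD4 interval is the widest.

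The balance of the network in FPKM depended on MXD4. The 3 MYC genes summed to 212, 183 and 201 FPKM in parental and to 162, 189 and 189 FPKM in resistant libraries. The 6 repressors summed to 162, 140 and 373 FPKM in parental and to 160, 134 and 138 FPKM in resistant libraries. The ratio of MYC genes to repressors was 1.05 ± 0.445 in parental and 1.26 ± 0.217 (SD, n = 3 per group) in resistant cells, and the groups overlapped. Without MXD4, an alternative chosen after the data had been seen, the other 5 repressors summed to 104, 114 and 106 FPKM in parental and to 119, 128 and 128 FPKM in resistant libraries, with no overlap. The ratio of MYC genes to these 5 repressors was 2.05, 1.61 and 1.90 in parental and 1.36, 1.48 and 1.47 in resistant libraries, so that its direction was opposite to that with MXD4. With all 6 repressors but without parental replicate 2, the ratio of the resistant to the parental mean was 0.963, against 1.20 with all libraries. These sums are descriptions of transcript levels and were not tested.

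**Figure D3:**
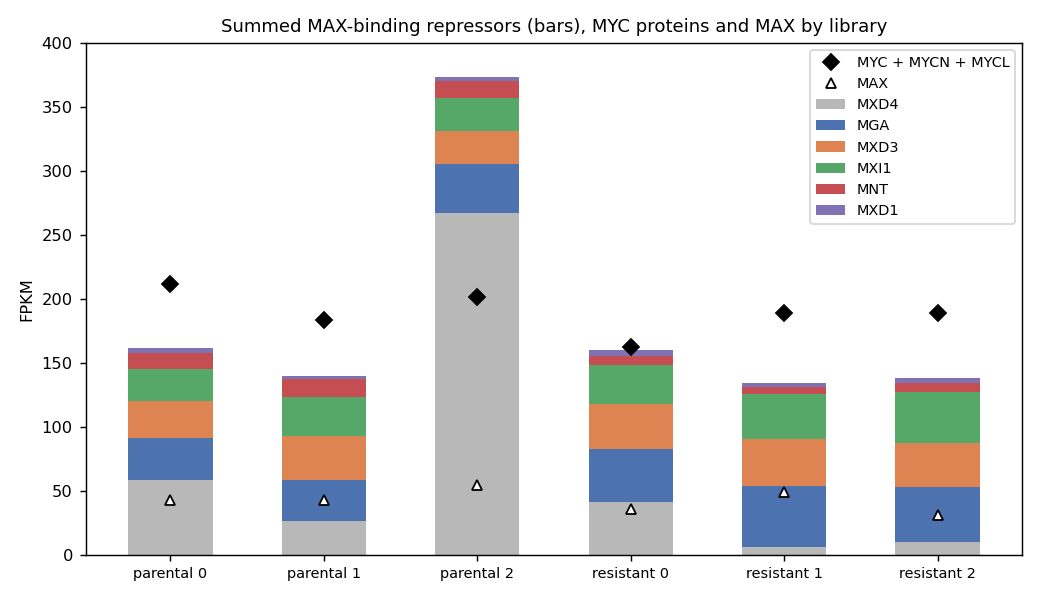
FPKM summed over the 6 MAX-binding repressors (stacked bars, one color a gene), over the 3 MYC genes (diamonds) and for MAX (triangles), y axis from 0, in each of the 6 libraries. Parental replicate 2 reaches 373 FPKM of repressors through MXD4, and the other libraries lie between 134 and 162 FPKM.

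In the parallel MLX arm, the shared partner MLX and the sensor MLXIP fell while the target TXNIP rose. MLX on chromosome 17 had 48.6, 36.6 and 42.9 FPKM in parental and 26.4, 28.3 and 28.5 FPKM in resistant libraries, a log2 fold change of −0.61 (SE 0.12, adjusted p = 0.00668 by limma and Benjamini-Hochberg). MLXIP fell from 37.7 ± 3.34 to 28.7 ± 1.116 FPKM (mean ± SD, n = 3 per group), with a log2 fold change of −0.39, and missed the threshold after median-ratio scaling of the libraries (MLXIP log2 fold change −0.29, adjusted p = 0.0512 in limma with Benjamini-Hochberg correction). TXNIP, an inhibitor of thioredoxin and of glucose uptake that MLX dimers induce, was at 96.1, 97.2 and 114 FPKM in parental and at 263, 272 and 322 FPKM in resistant libraries. All resistant values were above all parental values, with a log2 fold change of 1.48 (SE 0.11, adjusted p = 1.36e-04 by limma and Benjamini-Hochberg). ARRDC4, the other target listed, was not past the threshold, with 5.62 ± 1.08 FPKM in parental and 6.70 ± 0.624 FPKM in resistant cells (SD, n = 3 per group). MLXIPL averaged 1.40 ± 0.352 FPKM in parental and 3.07 ± 1.47 FPKM in resistant cells (SD, n = 3 per group), without overlap and with an adjusted p of 0.0780 in limma with Benjamini-Hochberg correction.

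While MYC itself did not pass the test, 4 of the transcripts around it on the long arm of chromosome 8 fell and none of the list rose, although 1 rose without parental replicate 0. Of 22 neighbors listed, 12 were tested, and the median log2 fold change was −1.50 against −0.05 over all genes. This median rests partly on transcripts that averaged below 1 FPKM and were not called. Among them, POU5F1B, CASC8, CASC11 and CASC21 had log2 fold changes of −0.76, 1.40, 0.49 and −1.44. The share downregulated was 33.3%, beside 22.3% of all genes tested. PVT1, a long non-coding RNA downstream of MYC (127794526 to 128187101), had 196, 268 and 317 FPKM in parental and 59.6, 75.4 and 76.0 FPKM in resistant libraries. The resistant values were all lower, by 3.70-fold on average, with a log2 fold change of −1.87 (SE 0.19, adjusted p = 5.07e-04 by limma and Benjamini-Hochberg). MYC had a log2 fold change of −0.13 in the same libraries. PCAT1, a prostate cancer associated long non-coding RNA upstream of MYC, had 8.22, 7.05 and 8.41 FPKM in parental and 0.560, 1.44 and 1.67 FPKM in resistant libraries, a log2 fold change of −2.71. FAM84B fell from 21.7 ± 0.679 to 11.8 ± 0.539 FPKM and PRNCR1 from 0.980 ± 0.175 to 0.154 ± 0.0320 FPKM (SD, n = 3 per group). PCAT1 and FAM84B overlap on opposite strands, where the same limit holds, and their reads may not have been told apart. The other 8 neighbors tested were not past the threshold. CASC11, which overlaps the start of MYC on the opposite strand, was at 0.0701 to 0.796 FPKM in parental and at 0.206 to 0.964 FPKM in resistant libraries.

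**Figure D4:**
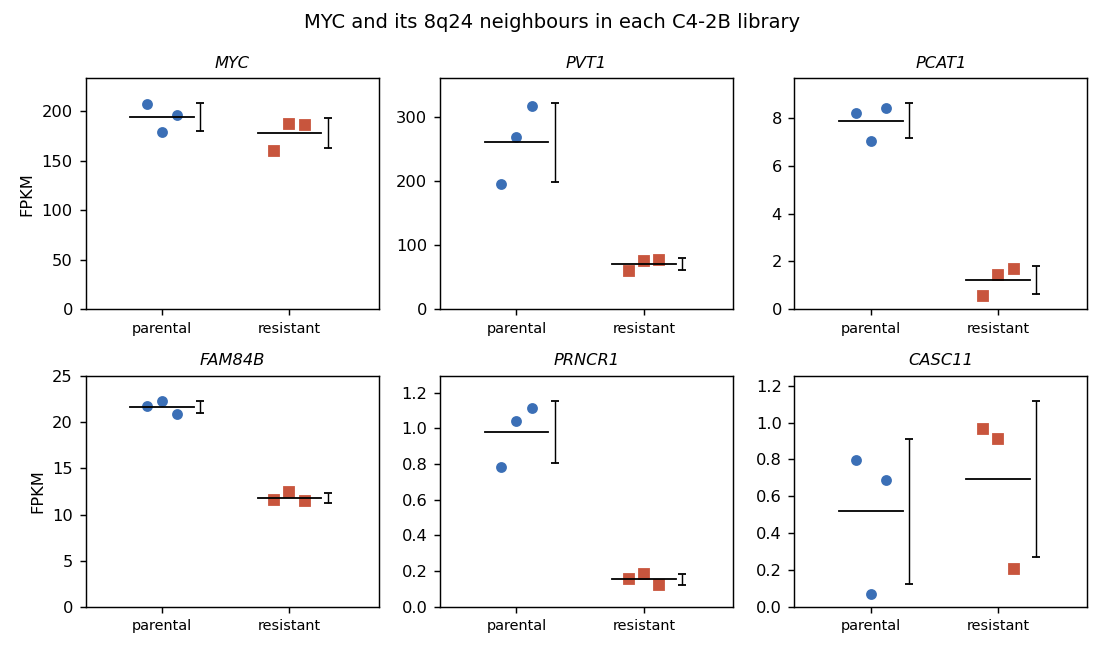
FPKM (y axes, linear from 0, a different scale for each gene) of MYC and 5 neighbors in the 3 parental (circles) and 3 resistant (squares) libraries, with group means (horizontal lines) and SD (bars at the side). PVT1, PCAT1, FAM84B and PRNCR1 have resistant values below all parental values, and MYC and CASC11 overlap.

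Genes widely described as activated by MYC moved in both directions, more of them downward. The list held 73 genes of ribosome biogenesis, translation, metabolism and the cell cycle, written from general knowledge. Of the 72 tested, 14 were upregulated and 27 downregulated, or 19.4% and 37.5%, beside 22.1% and 22.3% of all genes and 28.9% and 26.7% of protein-coding genes. In both directions together, 56.9% of the list and 55.7% of protein-coding genes were called. The median log2 fold change was −0.23, against −0.05 over all genes tested and 0.01 over protein-coding genes. After quantile normalization it was −0.13, against −0.07 over all genes tested.

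The downregulated genes of this list included SRM, the spermidine synthase, which fell from 192 ± 7.38 to 61.9 ± 4.30 FPKM (mean ± SD, n = 3 per group), with a log2 fold change of −1.63 (SE 0.08, adjusted p = 2.60e-05 by limma and Benjamini-Hochberg). TMEM97 and FARSA, a subunit of phenylalanyl-tRNA synthetase, had log2 fold changes of −1.34 and −0.91. LDHA, the lactate dehydrogenase whose promoter is shown above, was chosen after its values were seen and had a log2 fold change of −1.56. All 4 genes had resistant values below all parental values.

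The upregulated genes of the list included CDK4, the cyclin D dependent kinase with 3 E-boxes, which rose from 110 ± 13.5 to 317 ± 12.2 FPKM (mean ± SD, n = 3 per group), with a log2 fold change of 1.53 (SE 0.10, adjusted p = 7.68e-05 by limma and Benjamini-Hochberg). SHMT2, the mitochondrial serine hydroxymethyltransferase, and IPO4, an importin, had log2 fold changes of 0.73 and 0.87.

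The E-box was present in genes of the list that rose, fell or were not called. It was in 31 of the 77 windows given for 60 of the genes, or 40.3%, against 7.3% of all windows. It was in 4 of 12 windows of genes that rose, in 13 of 31 windows of genes that fell, and in 14 of 34 windows of genes not called. Of the 31 genes tested with the motif, 4 rose and 13 fell, with a median log2 fold change of −0.29. Of the 29 without it, 7 rose and 8 fell, with a median of −0.06. No test was made of this difference.

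Genes described as repressed by MYC, through MIZ1 (ZBTB17) or otherwise, were also split. Of 19 listed genes, 18 were tested, and 8 were upregulated and 4 downregulated, or 44.4% and 22.2%, beside 28.9% and 26.7% of protein-coding genes. The median log2 fold change was 0.59, and 0.01 over protein-coding genes. TXNIP and MXD4 stand in this list as well as in those above. CCND1, the cyclin partner of CDK4, rose from 274 ± 19.7 to 1759 ± 71.2 FPKM (SD, n = 3 per group), CLU, a secreted chaperone, from 47.5 ± 4.601 to 774 ± 64.7 FPKM, and CDH3, the P-cadherin, from 3.18 ± 0.331 to 47.3 ± 6.23 FPKM. The cell cycle inhibitors did not move together. CDKN1A, one of them, fell from 82.9 ± 7.63 to 29.6 ± 1.43 FPKM (log2 fold change −1.48), while CDKN1B and CDKN1C, chosen after their values were seen, rose with log2 fold changes of 0.70 and 0.92. NDRG1, also an androgen and hypoxia response gene, fell with a log2 fold change of −2.97, and CEBPA with −1.40.

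**Figure D5:**
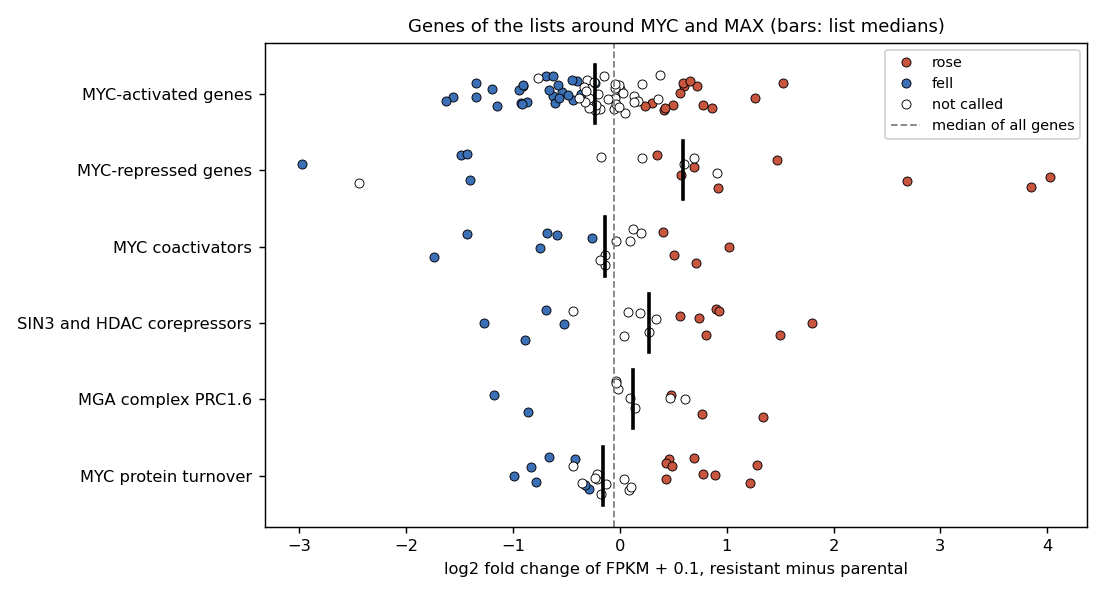
Log2 fold change of FPKM + 0.1 between resistant and parental cells (x axis) for each gene tested (points, filled where past the threshold, with random vertical spread) in 6 lists (rows), with list medians (bars) and the median of all genes (dashed line, −0.05). Each list has genes past the threshold in both directions.

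Cofactors of the activators changed in both directions. Of 17 MYC coactivators, 4 rose and 6 fell, or 23.5% and 35.3%, beside 28.9% and 26.7% of protein-coding genes. The acetyltransferase KAT2A fell with a log2 fold change of −0.68. The paired helicases RUVBL1 and RUVBL2 went apart, with log2 fold changes of −0.75 and 0.51. RUVBL1 had 126, 108 and 121 FPKM in parental and 66.4, 76.9 and 68.2 FPKM in resistant libraries, without overlap. TRRAP, the scaffold that MYC binds, rose from 22.1 ± 2.35 to 36.3 ± 2.82 FPKM (SD, n = 3 per group), and ZBTB17 from 16.4 ± 0.311 to 33.4 ± 2.88 FPKM.

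Of 17 SIN3 and HDAC corepressors, which the MXD proteins, MXI1 and MNT recruit, 7 rose and 4 fell, or 41.2% and 23.5%, beside 28.9% and 26.7% of protein-coding genes. The median log2 fold change was 0.27, and 0.01 over protein-coding genes. SAP30 rose from 21.1 ± 3.92 to 72.98 ± 2.16 FPKM (mean ± SD, n = 3 per group), with a log2 fold change of 1.80 (SE 0.15, adjusted p = 1.93e-04 by limma and Benjamini-Hochberg). SUDS3 and HDAC2 rose with log2 fold changes of 1.503 and 0.90. The scaffold SIN3B fell with a log2 fold change of −0.89 and SAP18 with −1.27. Subunits of the same complexes therefore differed in direction.

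Of 12 genes listed for the Polycomb complex that holds MGA, 3 rose and 2 fell, or 25% and 16.7%, which is not more than the 28.9% and 26.7% of protein-coding genes. RING1 rose from 19.2 ± 0.514 to 32.9 ± 1.72 FPKM (SD, n = 3 per group), with a log2 fold change of 0.77. BCORL1, which was counted in this list but is usually placed in a related Polycomb complex, rose with 1.34. RNF2, the other RING subunit, had a log2 fold change of 0.48 and lost its call (RNF2 log2 fold change 0.35 to 0.55) without any one of 5 libraries, all but resistant replicate 0, with adjusted p values up to 0.122 in limma with Benjamini-Hochberg correction. RYBP and TFDP2 fell with log2 fold changes of −1.18 and −0.85. E2F6, L3MBTL2 and PCGF6, which define the complex that holds MGA, were not past the threshold.

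Regulators of MYC protein turnover also went both ways, with 9 of 26 upregulated and 7 downregulated, or 34.6% and 26.9%, beside 28.9% and 26.7% of protein-coding genes. After quantile normalization the counts were 10 and 5. Without resistant replicate 2, 5 were upregulated. GSK3A, a kinase of the family that marks MYC for degradation, had 7.86, 7.76 and 6.04 FPKM in parental and 16.9, 16.3 and 17.4 FPKM in resistant libraries, a log2 fold change of 1.22 (SE 0.14, adjusted p = 6.57e-04 by limma and Benjamini-Hochberg). FBXW7, the ubiquitin ligase that reads this mark, and STUB1, another ligase, had log2 fold changes of 0.89 and 0.78. GSK3B, the more abundant kinase of the GSK3A family, was not past the threshold, with a log2 fold change of −0.23. It had 45.6 ± 5.59 FPKM in parental and 38.8 ± 3.52 FPKM in resistant cells (SD, n = 3 per group), and the groups overlapped. AURKA, a kinase that stabilizes MYCN, fell from 48.9 ± 2.05 to 24.7 ± 0.748 FPKM (mean ± SD, n = 3 per group), with a log2 fold change of −0.98, and PIM2 and PLK1 fell with −0.83 and −0.67. Protein levels were not measured in these files.

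The genes whose pattern over the 6 libraries was most like that of MYC, among 12368 other protein-coding genes at 1 FPKM or more, were TSNAX, SRP68 and STX8, with Pearson r of 0.978, 0.972 and 0.972 of the log2 values. For MXD4, the member with the largest fold change, they were ZBTB38, INPP5F and SKA2, with r of 0.991, 0.9895 and 0.985. ZBTB38 was at 20.5, 16.2 and 29.1 FPKM in parental and at 18.1, 13.0 and 14.1 FPKM in resistant libraries, in the same order of libraries within each group as MXD4. With 6 points that share libraries and groups, these correlations are descriptions of likeness only.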

How the data were processed

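The table with 6 libraries was analysed, 3 from parental C4-2B cells and 3 from their resistant subline. By the methods, the authors used TrimGalore 0.4.3 on 50 bp single-end reads, STAR 2.5.3 for alignment (GRCh38, GENCODE v25) and Cufflinks 2.2.1 for FPKM. The deposited values are taken as FPKM, since the table names no unit. The submitters' processing notes also name mm10, Trimmomatic 0.27 and FastQC 0.10.1, but the identifiers are human. The library kit was stranded, but whether strand was used in counting, and the scaling between libraries, are not given in the sources used here. FPKM depends on transcript models, so that overlapping or short genes can take reads from each other. No count test was possible.

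The groups were compared by limma 3.58.1 (R 4.3.3) from log2(FPKM + 0.1). Genes averaging 0.1 FPKM or more, 24468 in all, entered the fit, which had a mean-variance trend and two-sided p values adjusted by Benjamini-Hochberg over all of them, at a threshold of 0.05. For a single gene, an exact two-sided permutation test of 3 against 3 libraries cannot go below p = 0.1, which MYCL, MNT, MGA and TXNIP reached. The fit was tested on simulated data. Gene positions and types came from GENCODE v44 on the same build, for 98.2% of the identifiers, and promoters from RefSeq. Depth was estimated with fragments assumed to be 200 bases long. Python 3.11.15, numpy 2.4.6, pandas 2.3.3 and matplotlib 3.10.9 were used.

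The members and lists were chosen with earlier results of these data known. Named were the members, the MLX arm, in each other list up to 3 upregulated and 3 downregulated genes with the smallest adjusted p at 1 FPKM or more, the neighbors of MYC, and the 3 genes most like MYC and like the member with the largest fold change. Some genes covered by this rule are left out of the text. Alternatives covered the pseudocount, the filter, the scaling, the trend, a block for the replicate number and each library left out.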

Additional observations from a re-analysis of the deposited data

How the results depend on the processing

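Of the results on the members, the lists and the sums, 454 values under alternatives were kept, 17 moved, 6 lost and 6 gained a call. Fold changes were kept if they stayed on their side of the threshold, and sums if they stayed within the spread of the first value. Counts of genes were kept within a fixed ratio of the first count. This is a loose rule, under which 10 upregulated MYC-activated genes against 14 at first were kept. No fold change with a call changed sign, but ratios of the untested sums crossed 1. The number of members upregulated, 1 at first, was 2 after median-ratio scaling, quantile normalization or scaling to protein-coding sums, and 0 without a variance trend or with a block for the replicate number. It ranged from 0 to 2 when single libraries were left out, and the number downregulated was 2 each time. The MXI1 log2 fold change passed the threshold at 0.46, 0.43 and 0.40 under these scalings. Leaving out single libraries gave 0.27 to 0.46, and 0.16 to 0.38 for MXD3. The MGA call was lost without the trend (0.36, adjusted p = 0.0848, limma) and with the replicate block (0.36, adjusted p = 0.0618, limma), and the MGA log2 fold change was 0.30 to 0.43 when single libraries were left out. Over all genes tested, same-numbered libraries did not deviate together (r from −0.00301 to 0.0165). These correlations cannot show whether some genes were paired, since they pool all genes, many of them low. The block moved all calls from 10868 to 9463. In the MLX arm the number downregulated was 1 after median-ratio scaling or without the trend, and the number upregulated was 2 with the block. Upregulated genes of MYC turnover ranged from 5 to 9, and upregulated neighbors of MYC from 0 to 1, when single libraries were left out. Without MXD4, the repressors had a ratio of resistant to parental means of 1.16, and the repressors over MAX one of 1.43, against 0.641 and 0.837 with it. The MYC genes over the repressors went from 1.20 to 0.775 without MXD4 and to 0.963 without parental replicate 2, and the repressors over MAX to 1.10 without parental replicate 2. Median-ratio scaling moved the median log2 fold change of all genes by 0.10, from −0.05 to 0.05, and that of genes activated by MYC to −0.13, a difference from all genes of −0.18 under both scalings. Without a filter on low values the median of all genes was 0.05. Depth limits MYCN, at about 8 reads or fewer a library.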

Other observations

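Short RNA genes inside the loci of the network were listed with values in a few libraries. Within PVT1, MIR1207 was at 57.0, 153 and 41.7 FPKM in parental replicates 0 to 2 and at 0, 35.5 and 0 FPKM in the resistant libraries, and MIR1206 was listed at 115 FPKM in parental replicate 1 alone. The RNA family entry PVT1_1 in the same locus had 14.3, 117 and 4.57 FPKM in parental and 9.01, 0.832 and 8.19 FPKM in resistant libraries. Parental replicate 1 was the highest for each of the 3 entries, while PVT1 itself was highest in parental replicate 2. The antisense genes MYCNOS and MYCL-AS1 were listed at 0 in every library.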
